A study of Homo sapiens with 24 samples.

Results

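MV4-11 and MOLM-14 are human cell lines of acute monocytic leukemia, and both carry an internal tandem duplication of the receptor tyrosine kinase FLT3 (FLT3-ITD). Their baseline expression was compared in the 3 arrays labelled MV4-11 Control and the 3 arrays labelled MOLM-14 Control, 6 of the 24 arrays of the series. Each array held RNA of 1 culture kept for 24 hours with DMSO, the solvent of the drugs, and the methods describe the triplicates as biological. In the other 18 arrays the same lines had received the FLT3 inhibitor ABT-869, the histone deacetylase inhibitor SAHA or the combination of both, with 3 arrays for each line and treatment. Only mutated FLT3 alleles are present in MV4-11, whereas MOLM-14 has a mutated and a wild-type allele. Each line descends from a single patient, so the FLT3 genotype and everything else in which the cultures differ cannot be told apart. RNA of whole cultures was measured, so fewer cells of a kind and less RNA per cell cannot be told apart.

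Both lines carry a rearrangement of KMT2A, a histone methyltransferase gene, joined to AFF1 in MV4-11 and to MLLT3 in MOLM-14. Such fusion proteins keep the HOXA cluster and the cofactor MEIS1 switched on, and mutated FLT3 signals without ligand through STAT5 and ERK. Monocytic leukemia cells stand between the granule-forming progenitor, which makes myeloperoxidase and elastase, and the mature monocyte, which carries CD14 and is rich in the calcium-binding proteins S100A8 and S100A9. Cultured cells also run general stress programs. In the amino acid response, the factor ATF4 switches on genes of amino acid synthesis and transport and the factor DDIT3. Metallothioneins are small metal-binding proteins, and IFIT proteins bind foreign RNA after interferon or direct activation of IRF factors.

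The values are linear signals, 1 for each probe set of the array, which the authors had scaled to a common trimmed mean. Signals below 32 were raised to that floor and the log2 was taken. Of 54613 probe sets, 6596 lay at the floor on all 6 arrays. A probe set was called different at an adjusted p under 0.05 with a difference of at least 2-fold, and differences are given as MV4-11 minus MOLM-14 on the log2 scale. Genes on X and Y were left aside. In the counts by gene, 18991 autosomal genes were each represented by 1 probe set. The signals of one probe set are compared between the lines, never with those of another probe set.

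The profiles of the 2 lines were close to each other. Log2 signals correlated at 0.968 to 0.972 between arrays of different lines, against 0.975 to 0.976 within MV4-11 and 0.978 to 0.984 within MOLM-14. Of the probe sets above the floor on at least 1 array, 96.3% differed by less than 2-fold. No probe set had a log2 signal of 8 or more on all 3 arrays of one line and at the floor on all 3 of the other, although 16606 and 16155 probe sets reached that level on every MV4-11 or every MOLM-14 array. At a log2 signal of 7, there was a single such probe set, for TEDC1, at 174.5, 201.5 and 164.3 in MOLM-14 and at the floor in MV4-11. Genes known for inherited absence or for variation in their detection between people gave no call, but most were too dim to compare. ERAP2 was between 1221 and 1254 in MV4-11 and between 1331 and 1622 in MOLM-14, without overlap (-0.23, adjusted p = 0.16). UGT2B17, HLA-DQA1 and HLA-DRB4 lay at or below 57.2 on every array, too near the floor to show a difference. GSTT1, also near the floor, was at 6.6, 71.3 and 50.8 in MV4-11 and at 2.9, 19.7 and 37.6 in MOLM-14, and its groups overlapped. The groups are named below as the labels name them, and whether the 2 sets of cultures differ in genotype was not tested.

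Low signals ran higher in MV4-11, and some measures of array quality did not overlap between the lines. The median signal was 89.1 to 91.8 on MV4-11 arrays and 69.2 to 79.3 on MOLM-14 arrays. The share of probe sets below 32 was 27.5 to 28.5% on MV4-11 arrays and 30.7 to 33.3% on MOLM-14 arrays. The ACTB signal at the 3′ end over that at the 5′ end, a sign of RNA integrity, was 1.214 to 1.278 against 1.138 to 1.161. The same ratio for GAPDH did overlap, at 0.9805 to 0.9971 against 0.954 to 1.019. For probe sets with a mean log2 signal between 6 and 7 the median difference was 0.23, between 11 and 12 it was -0.05, and at 14 or more it was 0.34. The part of these shifts in single results was not tested.

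In the 54613 probe sets tested, 568 (1.04%) were called higher in MV4-11 and 239 (0.438%) higher in MOLM-14. After quantile normalization of the 6 arrays the counts were 367 and 354, of which 357 and 231 were shared with the first counts, so the excess on the MV4-11 side depends on the scaling. By gene, 228 of 18991 autosomal genes (1.2%) were higher in MV4-11 and 118 (0.621%) were higher in MOLM-14. Among the largest differences, genes of the amino acid response, the IFIT trio and a metallothionein were higher in MV4-11, and S100A8, S100A9, the transferrin receptor gene TFRC and the cyclin gene CCNE2 were higher in MOLM-14. The largest difference of all was that of S100A8, 15.2-fold higher in MOLM-14.

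**Figure D1:**
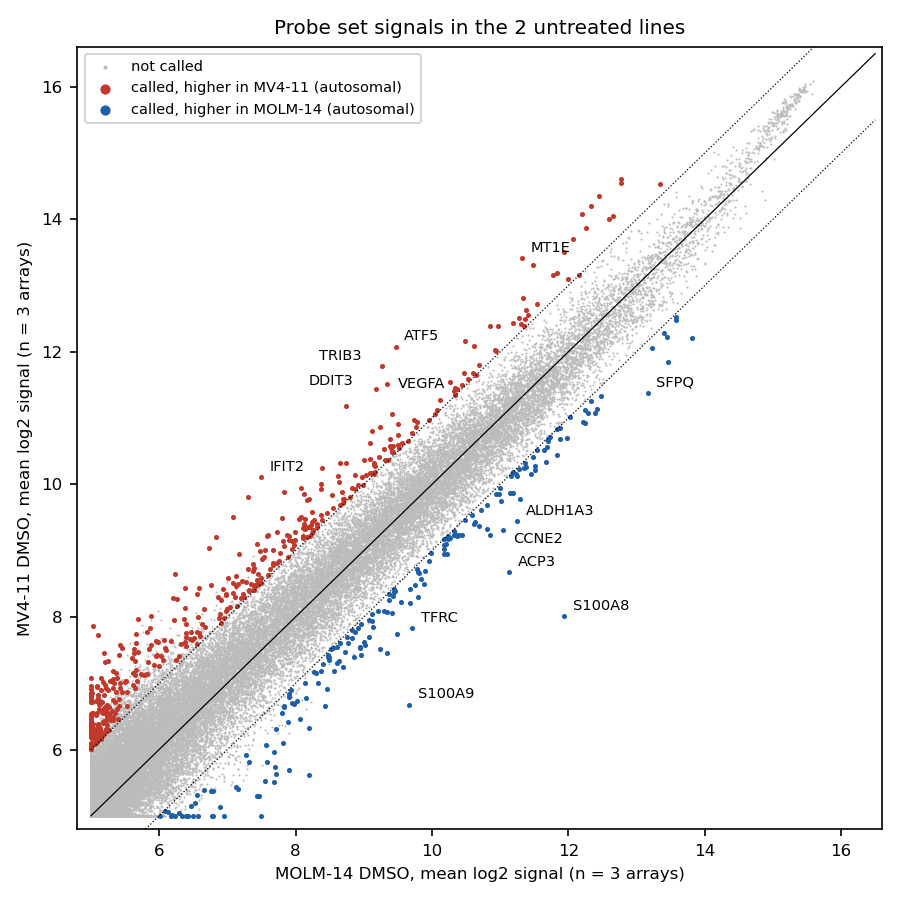
Mean log2 signal of each probe set in the 3 MOLM-14 DMSO arrays (x axis) against the 3 MV4-11 DMSO arrays (y axis), with grey points not called, red and blue points called on autosomes, the solid line at equal signals and the dotted lines at a 2-fold difference. Most points lie between the dotted lines, the cloud bends above the solid line at low and at very high signals, and S100A8 and S100A9 lie farthest below it.

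Promoter sequences are shown for 3 genes whose partners moved together, because short motifs recur in them. They run from 250 bases before to 50 bases after the annotated start, read 5′ to 3′, from RefSeq on GRCh38.p14, and capitals mark every match to the named motif on either strand. For IFIT1 and IFIT3 the motif is GAAA, any 2 bases and GAAA again, the core of the interferon-stimulated response element. For MT1X it is TGCNCNC, with any base at N, a loose form of the core of the metal response element.
IFIT1, chr10:89392373-89392672, plus strand: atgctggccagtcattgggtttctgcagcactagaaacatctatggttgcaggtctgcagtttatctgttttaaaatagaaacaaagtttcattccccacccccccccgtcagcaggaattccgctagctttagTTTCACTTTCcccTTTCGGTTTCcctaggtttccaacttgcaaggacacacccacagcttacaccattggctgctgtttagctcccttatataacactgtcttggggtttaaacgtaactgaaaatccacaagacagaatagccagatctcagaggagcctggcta
IFIT3, chr10:89327747-89328046, plus strand: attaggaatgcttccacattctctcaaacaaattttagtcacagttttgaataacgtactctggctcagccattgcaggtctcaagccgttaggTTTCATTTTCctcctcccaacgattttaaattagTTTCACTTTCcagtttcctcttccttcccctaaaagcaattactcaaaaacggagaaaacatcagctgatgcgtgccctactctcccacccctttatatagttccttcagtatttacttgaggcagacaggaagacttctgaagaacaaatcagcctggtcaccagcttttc
MT1X, chr16:56682220-56682519, plus strand: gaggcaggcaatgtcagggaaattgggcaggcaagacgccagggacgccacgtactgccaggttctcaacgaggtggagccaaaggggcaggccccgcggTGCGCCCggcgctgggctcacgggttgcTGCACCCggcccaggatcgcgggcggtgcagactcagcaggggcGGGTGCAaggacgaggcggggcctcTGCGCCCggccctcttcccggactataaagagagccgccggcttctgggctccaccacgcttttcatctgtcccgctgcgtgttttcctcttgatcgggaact
The IFIT motif stands in 2.93% of the 14765 promoters available for the genes tested and in 16 of 26 promoters of the interferon-induced genes. The shorter TGCNCNC stands in 60.9% of all these promoters, so most genes share it with MT1X. Both motifs were chosen after the values had been seen.

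IFIT1, IFIT2 and IFIT3 lie next to each other on chromosome 10, between positions 89302046 and 89406487. IFIT2 had signals of 1099, 1360 and 912 in MV4-11 and of 151.7, 149.9 and 257 in MOLM-14. Every MV4-11 array was above every MOLM-14 array, and the difference was 2.62 ± 0.24 (SE, 3 arrays against 3, adjusted p = 0.00142), or 6.155-fold. IFIT3 had signals of 898, 1202 and 668 against 119.3, 137.2 and 241.9, a difference of 2.50 ± 0.31 (adjusted p = 0.00347). IFIT1 had signals of 718, 915 and 590 against 129.4, 96.9 and 198.9, a difference of 2.43 ± 0.29 (adjusted p = 0.003). These 3 were the only calls among the 34 interferon-induced genes measured, beside 1.2% of all genes called higher in MV4-11. The median difference of the 34 was 0.21 beside 0.04 over all genes. Other members were not called, among them ISG15, a ubiquitin-like protein, at 0.57, the antiviral GTPase gene MX1 at 0.85 and the mitochondrial protein gene IFI6 at -0.67.

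The amino acid response genes differed as a block. All 25 members had a higher mean in MV4-11, and 8 were called, beside 1.2% of all genes called on this side. Of the 25, 24 had an adjusted p under 0.05, where 6.99% of all genes reached that on this side. The median difference of the 25 was 0.87 beside 0.04 over all genes. ATF5, a transcription factor translated under stress, had signals of 5831, 3641 and 3832 in MV4-11 and of 789, 802 and 562 in MOLM-14. The difference was 2.61 ± 0.21 (adjusted p = 0.000854), the groups did not overlap, and a further ATF5 probe set was called at 2.44. DDIT3, the stress factor also called CHOP, had signals of 2772, 2584 and 2987 against 520.3, 600.5 and 617.7, a difference of 2.26 ± 0.09 (adjusted p = 0.000117).

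TRIB3, a pseudokinase that restrains ATF4, had signals of 3574, 3618 and 3376 in MV4-11 and of 704, 632 and 523 in MOLM-14, a difference of 2.52 ± 0.11 (adjusted p = 0.000129). Its brighter probe set differed by 1.83. CEBPB, a C/EBP factor listed both here and among myeloid factors, was 3.202-fold higher in MV4-11, with 4402, 4721 and 4670 against 1585, 1224 and 1523. The other called members were CHAC1, which degrades glutathione (1.60), ASNS, asparagine synthetase (1.54), NUPR1, a small stress-induced protein (1.55), and CTH, which makes cysteine (1.53). The ATF4 transcript itself was not called, at 0.37, and the serine enzymes PHGDH and PSPH were at 0.46 and 0.33.

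Of 14 metallothionein and metal genes, 6 were called higher in MV4-11 and none higher in MOLM-14, beside 1.2% and 0.621% of all genes. All 6 were metallothioneins, with differences from 1.51 to 1.90. MT1X had signals of 21413, 20776 and 20328 in MV4-11 and of 5950, 5962 and 4907 in MOLM-14, a difference of 1.90 ± 0.09 (adjusted p = 0.000152). MT1E was 3.68-fold higher in MV4-11 on its brighter probe set, and 4.25-fold on the other, with 10554, 11097 and 11113 against 2528, 2706 and 2477. Metallothionein genes are near-identical and these probe sets may cross-hybridize, so the count of separate genes is uncertain. MTF1, the factor that senses zinc, was not called (-0.33), and the zinc exporter gene SLC30A1 was at 0.65.

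**Figure D2:**
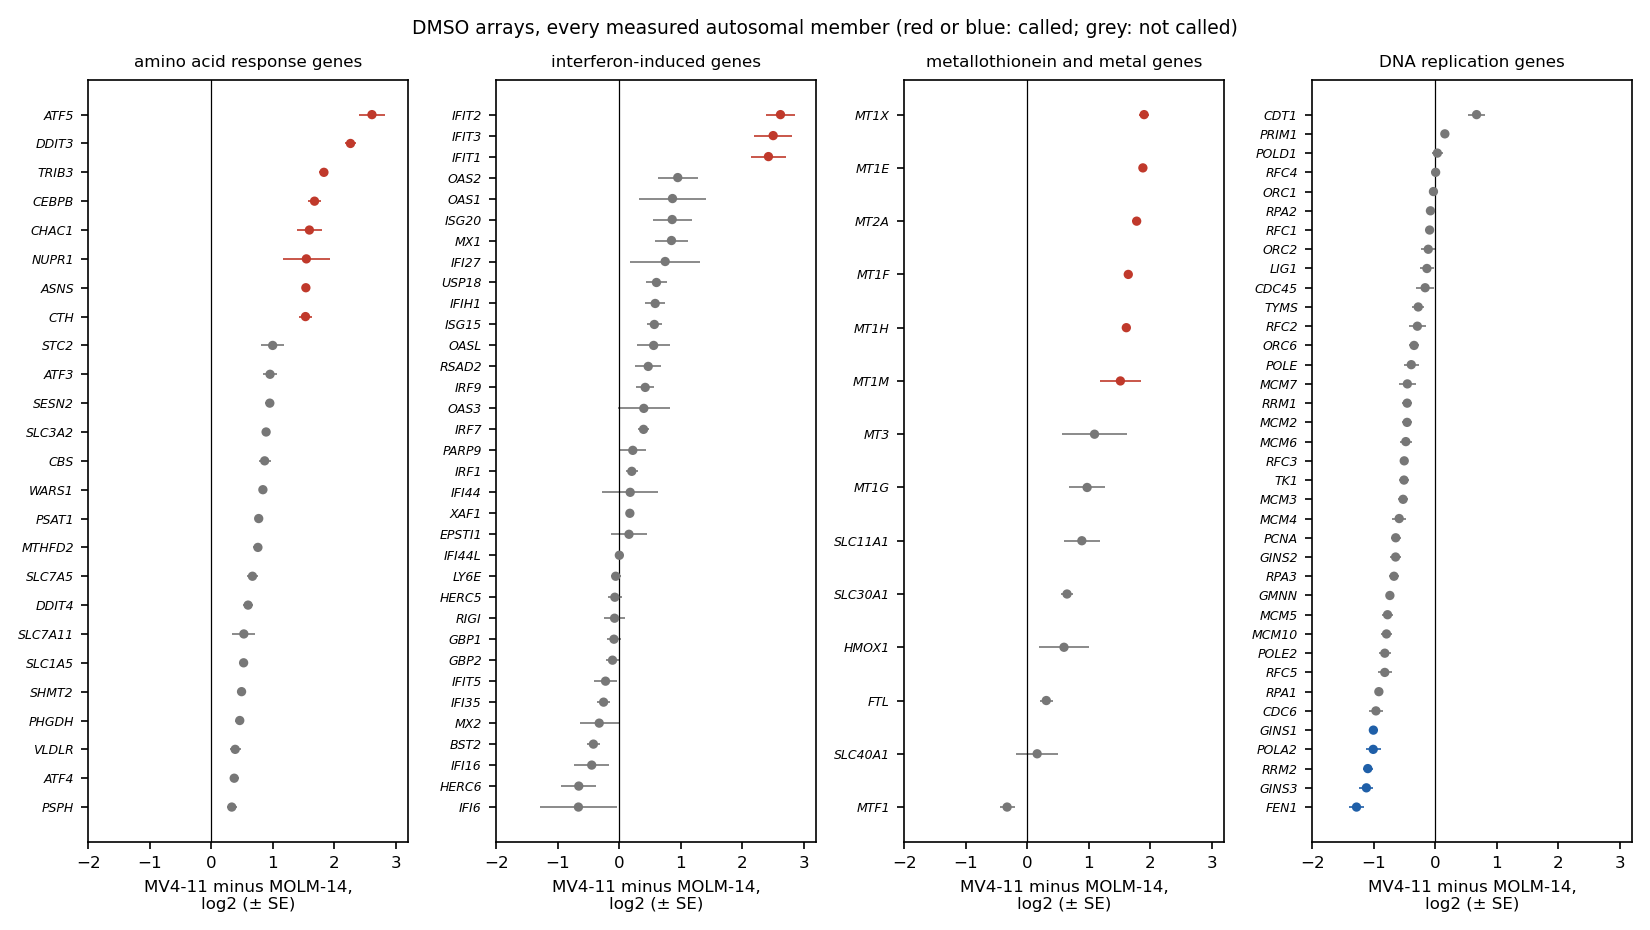
Difference between MV4-11 and MOLM-14 DMSO arrays on the log2 scale with its standard error (n = 3 arrays against 3) for every measured autosomal member of 4 gene lists, red or blue where called. All 25 amino acid response genes lie to the right of 0, only the IFIT trio stands apart among interferon-induced genes, and 33 of 37 DNA replication genes lie to the left of 0.

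Other genes with large differences toward MV4-11 belonged to no single list. VEGFA, the vascular growth factor, had signals of 3459, 2651 and 2742 against 942, 538 and 541, a difference of 2.17 ± 0.22 (adjusted p = 0.00197), while its brightest probe set differed by 0.78 and was not called. ADGRG3, an adhesion G protein-coupled receptor of granulocytes, had signals of 451, 353 and 402 against 108.5, 86.3 and 45.6, a difference of 2.41 ± 0.35 (adjusted p = 0.00623). A second ADGRG3 probe set was called at 1.26. TPSAB1, a mast cell tryptase, had signals of 249.7, 269 and 259.9 against 87.6, 29.5 and 72.6, on a probe set that may also read other tryptases. Its difference was 2.14 ± 0.42 (adjusted p = 0.0187).

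The remaining large differences on the MV4-11 side were less steady. MARK4, a microtubule kinase, had signals of 159.3, 213 and 462.8 against 92.5, 42.3 and 35.5, a difference of 2.27 ± 0.53 (adjusted p = 0.036), and its other probe set differed by 0.04. The adjusted p of MARK4 was 0.0633 after quantile normalization. FLJ40288, a transcript of unknown role, differed by 2.32 ± 0.43 (adjusted p = 0.0163) and lost its call in limma without the intensity trend. CCL20, a chemokine, had signals of 150.8, 302 and 277.1 against 28.8, 24.3 and 33.8, a difference of 2.84 ± 0.36 (adjusted p = 0.00393) with 2 of 3 MOLM-14 arrays at the floor. The size of the CCL20 difference depends on that floor, at 3.02 with a floor of 1 and 1.86 with a floor of 64, and the call held with both.

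S100A8 and S100A9, which form the heterodimer calprotectin of monocytes and neutrophils, stood first on the MOLM-14 side. Both lie on chromosome 1, S100A9 from 153357854 to 153361023. S100A8 had signals of 229.3, 239 and 314.7 in MV4-11 and of 4413, 4443 and 3112 in MOLM-14. The groups were far apart, with a difference of -3.93 ± 0.17 (adjusted p = 0.000134). S100A9 had signals of 120.3, 99.2 and 90.1 against 910, 888 and 666, a difference of -2.99 ± 0.19 (adjusted p = 0.000468), or 7.94-fold. Within the S100, MS4A and PYHIN families, 4 of 21 measured genes were called higher in MOLM-14 and 1 was called higher in MV4-11. Over all genes these shares were 0.621% and 1.2%. S100P, a relative of S100A8, went the other way, with 1141, 1357 and 1345 against 437, 457 and 324 (1.67 ± 0.15, adjusted p = 0.00116). S100A12, the third calgranulin, was near the floor in both lines.

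Further monocyte genes differed in both directions. MS4A4A, a membrane protein of macrophages, had signals of 103.3, 42.7 and 116.9 in MV4-11 and of 277, 278.4 and 332.4 in MOLM-14 (-1.88 ± 0.41, adjusted p = 0.0278), and another probe set of the gene was at -1.27 and was not called. MPEG1, which encodes the pore-forming perforin-2, was at -1.78 and MNDA, a nuclear protein of the myeloid line, at -1.39, and both were called. ITGAX, the integrin CD11c, was higher in MV4-11, with 427.3, 250.5 and 420.8 against 173, 113 and 139.6 (1.35 ± 0.28, adjusted p = 0.0239). Over the 41 monocyte and macrophage genes measured, 5 were called higher in MOLM-14 and 1 in MV4-11, beside 0.621% and 1.2% of all genes. The median difference of the 41 was -0.01. Members not called included CSF1R, the receptor for M-CSF (-0.16), ITGAM, the integrin CD11b (0.24), and TLR2 (-0.01).

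Further genes were higher in MOLM-14. TFRC, the transferrin receptor for iron uptake, had signals of 4542, 5062 and 4681 in MV4-11 and of 14648, 14847 and 13580 in MOLM-14 on its brightest probe set, a difference of -1.59 ± 0.07 (adjusted p = 0.000127). A dimmer TFRC probe set differed by -1.88. ACP3, the prostatic acid phosphatase, had signals of 353.9, 472.1 and 410.2 against 2170, 2010 and 2619, a difference of -2.46 ± 0.14 (adjusted p = 0.000318). Another ACP3 probe set was at -0.48 and was not called, and a dim one, at the floor in MV4-11, was called at -1.17. ALDH1A3, which makes retinoic acid, had signals of 739, 614 and 740 against 2457, 2504 and 2362 (-1.81 ± 0.09, adjusted p = 0.000205). In each of these genes the 2 groups of arrays were clearly separate.

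SFPQ, a splicing factor, had signals of 2961, 2699 and 2354 in MV4-11 and of 9589, 9206 and 8921 in MOLM-14 (-1.80 ± 0.09, adjusted p = 0.000214), but its other probe sets ranged from -1.39 to 0.51. ADAMTS1, a secreted protease, had signals of 198.9, 236.6 and 207.4 against 651, 628 and 907 (-1.75 ± 0.17, adjusted p = 0.00163). A second ADAMTS1 probe set was at -1.01 and was not called. TMEM201, of the inner nuclear membrane, differed by -2.58 ± 0.35 (adjusted p = 0.00503), although its brighter probe set was at -0.45. MRPS12, of the mitochondrial ribosome, and SSU72, a phosphatase of RNA polymerase, differed by -1.88 and -1.77 on dim probe sets, while their brightest probe sets were at -0.66 and -0.52 and were not called.

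**Figure D3:**
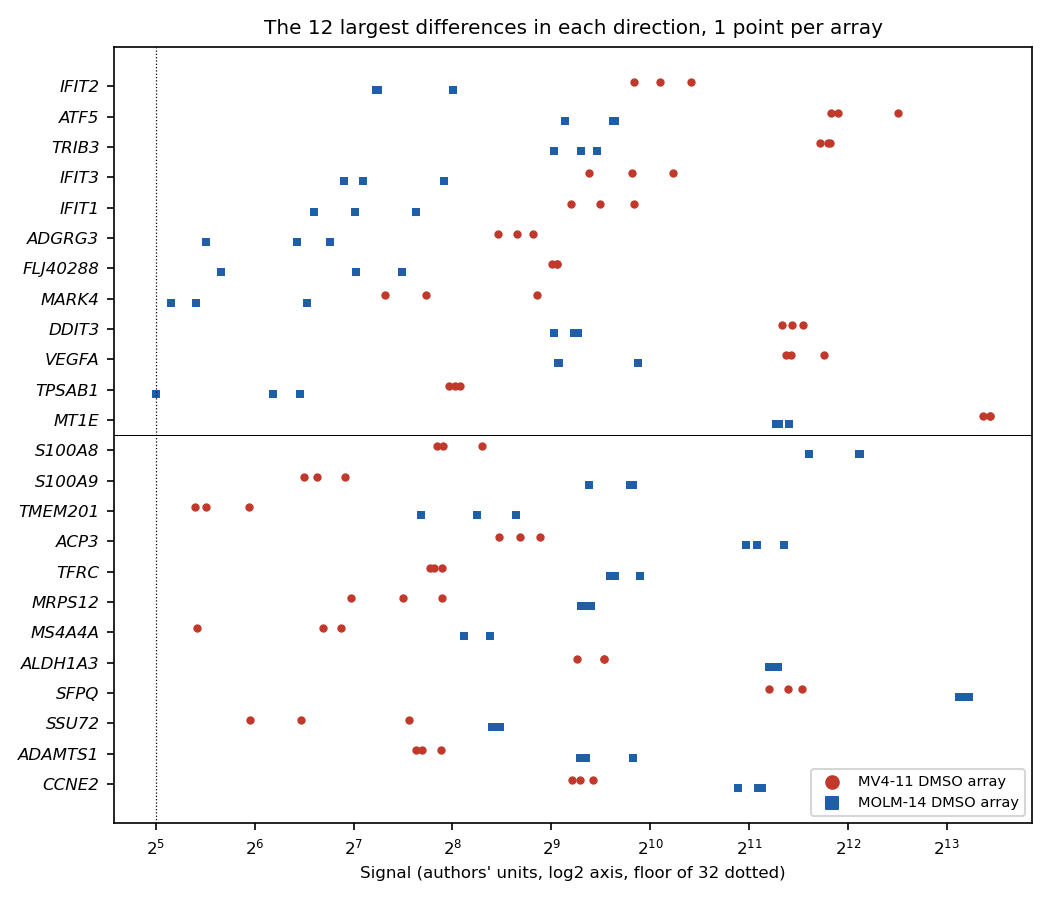
Signal of each DMSO array (log2 axis, authors' units) for the 12 largest differences in each direction, with red circles for the 3 MV4-11 arrays and blue squares for the 3 MOLM-14 arrays. The colors do not overlap in any of the 24 genes, which the choice of genes required, and S100A8 shows the widest gap.

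Genes of DNA replication leaned the other way from the stress genes. Of 37 measured, 33 had a higher mean in MOLM-14, and 5 were called, beside 0.621% of all genes called on this side. Of the 33, 23 had an adjusted p under 0.05, where 8.53% of all genes reached that on this side. The median difference of the 37 was -0.51 beside 0.04 over all genes. FEN1, the flap endonuclease that trims Okazaki fragments, had signals of 2290, 2304 and 2164 in MV4-11 and of 6557, 5377 and 4667 in MOLM-14 (-1.28 ± 0.12, adjusted p = 0.00131). GINS3, a subunit of the replicative helicase complex, had signals of 433.7, 399.7 and 394.8 against 896.5, 780.3 and 1009 (-1.12 ± 0.11, adjusted p = 0.00194). RRM2, of ribonucleotide reductase, was at -1.10, and GINS1 and POLA2, a subunit of the primase complex, were both at -1.01. The helicase genes MCM2 to MCM7 lay between -0.78 and -0.46 and were not called. CDT1, a licensing factor, was an exception at 0.67.

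Cyclin E genes matched that side. CCNE2 had signals of 624, 592 and 686 in MV4-11 and of 2247, 2177 and 1898 in MOLM-14, a difference of -1.73 ± 0.09 (adjusted p = 0.000302), and its second probe set was called as well. CCNE1 had signals of 167.6, 240.9 and 256.5 against 469.6, 481.9 and 454.5 (-1.10 ± 0.19, adjusted p = 0.0106), although the mean of all its probe sets differed by -0.11. With the phosphatase gene CDC25A (-1.01), 3 of 22 cyclin and CDK inhibitor genes were called higher in MOLM-14 and none higher in MV4-11. Over all genes these shares were 0.621% and 1.2%. The inhibitor genes CDKN1A and CDKN1B were at 0.00 and 0.12, and CDK6 was at -0.02.

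The lineage programs were largely shared. Both lines had the markers of myeloid leukemia cells, with LYZ at 12301 to 13245 and 13209 to 15095, FLT3 at 14875 to 15166 and 10511 to 11199, and CEBPA at 19253 to 20594 and 15394 to 17352, in MV4-11 and MOLM-14. CD14 was at or below 31.4 on all 6 arrays, so the defining surface marker of mature monocytes was not detected in either line. Of the markers of other cells, COL1A1, EPCAM and HBB exceeded 115.2 on no array but one, a MOLM-14 array with COL1A1 at 165.5. CD3E, of T cells, had signals of 73.9 to 137.7 in MV4-11 and 72.2 to 105.1 in MOLM-14, and PAX5, a B cell factor, had signals of 595 to 740 without a difference between the lines that passed (0.06).

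Among 19 primary granule genes measured, none was called in either direction. MPO, myeloperoxidase, had signals of 1279, 1409 and 1523 in MV4-11 and of 2431, 2607 and 1971 in MOLM-14, a difference of -0.73 ± 0.12 that passed the adjusted p (0.00859) and not the 2-fold minimum. A second MPO probe set, with signals from 896 to 1201 over the 6 arrays, differed by -0.10 (adjusted p = 0.732). ELANE, neutrophil elastase, was at -0.08 and CTSG, cathepsin G, at 0.11. In the 20 secondary granule and neutrophil genes, 5 of which were above the floor on all 6 arrays, the single call was CD177, at 134.3, 153.7 and 87 in MV4-11 and at 7.1, 50.2 and 12.3 in MOLM-14 (1.71 ± 0.36, adjusted p = 0.0241). With 2 MOLM-14 arrays at the floor, its size depends on the floor: the CD177 difference was 2.89 with a floor of 1 and 0.93, not called, with a floor of 64.

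Of 19 myeloid transcription factor genes, 7 were higher in MV4-11 at an adjusted p under 0.05, beside 6.99% of all genes, and none was higher in MOLM-14, but only 1 reached 2-fold. SPI1, which encodes the monocyte factor PU.1, had signals of 2797, 2356 and 1796 in MV4-11 and of 1404, 1285 and 920 in MOLM-14. Its difference of 0.94 ± 0.20 (adjusted p = 0.0254) fell short of 2-fold. CEBPB was the only call among these genes, whose median difference was 0.24, and CEBPA (0.27), IRF8 (-0.29), GFI1 (0.39) and MYB (-0.14) were not called. Of 30 stem and progenitor genes, MN1, a transcriptional coactivator, was called, with 52, 57.9 and 87.7 in MV4-11 and all 3 MOLM-14 arrays at the floor, which makes it at least 2.005-fold higher. With a floor of 64 the MN1 difference was 0.15 and was not called. CD34 had signals of 87.5 to 150 in MV4-11 and 69.3 to 128.5 in MOLM-14, and the groups overlapped.

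No call was made among 34 B lymphoid, 32 T and NK lymphoid, 29 dendritic cell and MHC class II, or 17 mast cell, basophil and eosinophil genes, each read from 1 probe set. TPSAB1 was an exception outside that count, since it was read there from a probe set at the floor on all 6 arrays, while 3 of its other probe sets, all open to cross-hybridization, were called higher in MV4-11. The median of the T and NK genes was 0.43, but 10 of the 32 were above the floor on all 6 arrays, and after quantile normalization the median was 0.32. In the 26 erythroid and megakaryocyte genes, TFRC was the single call. Among 21 markers of cells outside the blood, COL6A3, a collagen chain, was called, with 647, 686 and 750 against 254.1, 216.1 and 512.7 (1.19 ± 0.30, adjusted p = 0.047), and after quantile normalization its adjusted p was 0.0577. The summed signal of these 21 markers was 2172.5 to 2457 on MV4-11 arrays and 1568 to 2613 on MOLM-14 arrays.

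The genes that define these leukemias showed small differences. FLT3 had signals of 15166, 14953 and 14875 in MV4-11 and of 10511, 11199 and 10740 in MOLM-14, a difference of 0.47 ± 0.06 (adjusted p = 0.00332) that stayed below 2-fold. The median over all probe sets of that brightness was 0.02. On their brightest probe sets, KMT2A was at -0.29 ± 0.20 (adjusted p = 0.504), its partner AFF1 at 0.00 ± 0.07 and MLLT3 at 0.13 ± 0.13. Other AFF1 probe sets were at 0.67 and 0.52 with separate groups and were not called (adjusted p = 0.113 and 0.168). Other KMT2A probe sets ran from -0.59 to 0.71, and none was called. Of 21 HOXA and KMT2A target genes listed, only 10 were measured here, so much of this program was not read. None of the 10 was called, and MEIS1 was at 0.34 ± 0.11 (adjusted p = 0.0999). PTP4A3, which encodes the phosphatase PRL-3, had signals of 3057, 2622 and 2682 against 1913, 1790 and 1435. Its difference of 0.71 ± 0.12 (adjusted p = 0.00963) was below 2-fold. The PTP4A3 probe set that the study listed differed by 0.38 (adjusted p = 0.0344).

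Receptors and signalling output reached 2-fold in few genes. Higher in MV4-11 at an adjusted p under 0.05, whatever the fold, were 11 of 47 receptor and ligand genes and 7 of 28 output genes of STAT5 and ERK, beside 6.99% of all genes. Higher in MOLM-14 in that way were 4 and 1, beside 8.53% of all genes. Among the receptors and ligands, AXL, a receptor kinase, was called higher in MV4-11, with 1599, 1646 and 1573 against 901, 719 and 792 (1.004 ± 0.09, adjusted p = 0.00129). The AXL difference was 0.94 with centred arrays, just under 2-fold. KITLG, the ligand of KIT, was called higher in MOLM-14, with 213.1, 255 and 268.6 against 580.6, 532.8 and 566.3 (-1.20 ± 0.13, adjusted p = 0.00248), although the mean of all its probe sets was at -0.50. Among the output genes of STAT5 and ERK, CISH, a feedback inhibitor of cytokine signalling, was the single call, with 3019, 3121 and 2857 against 1412, 1218 and 1098 (1.28 ± 0.10, adjusted p = 0.000712). PIM1, SOCS2 and DUSP6 were at 0.60, 0.32 and 0.10.

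Adhesion and secreted factors gave a few more calls. ITGAL, the integrin chain CD11a, had signals of 9729, 8503 and 8190 in MV4-11 and of 4395, 4043 and 3789 in MOLM-14 (1.11 ± 0.09, adjusted p = 0.000815). CDH2, N-cadherin, was called at 64.1 to 89.1 against 23.9 to 46 (1.05 ± 0.27, adjusted p = 0.0478) with 2 MOLM-14 arrays at the floor. The CDH2 difference was 0.23 with a floor of 64 and 1.26 with a floor of 1, and was not called with either. TNF, the inflammatory cytokine, had signals of 1300, 1208 and 1622 in MV4-11 and of 3126, 2978 and 2520 in MOLM-14 (-1.07 ± 0.13, adjusted p = 0.00307). ENO2, an enolase of glycolysis, was the single call among 24 glycolysis and hypoxia genes, with 2357, 2013 and 2095 against 826, 685 and 567 (1.65 ± 0.14, adjusted p = 0.000987). CTSA, a lysosomal protective protein, was the single call among 25 lysosome genes (-1.13 ± 0.15, adjusted p = 0.00454).

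**Figure D4:**
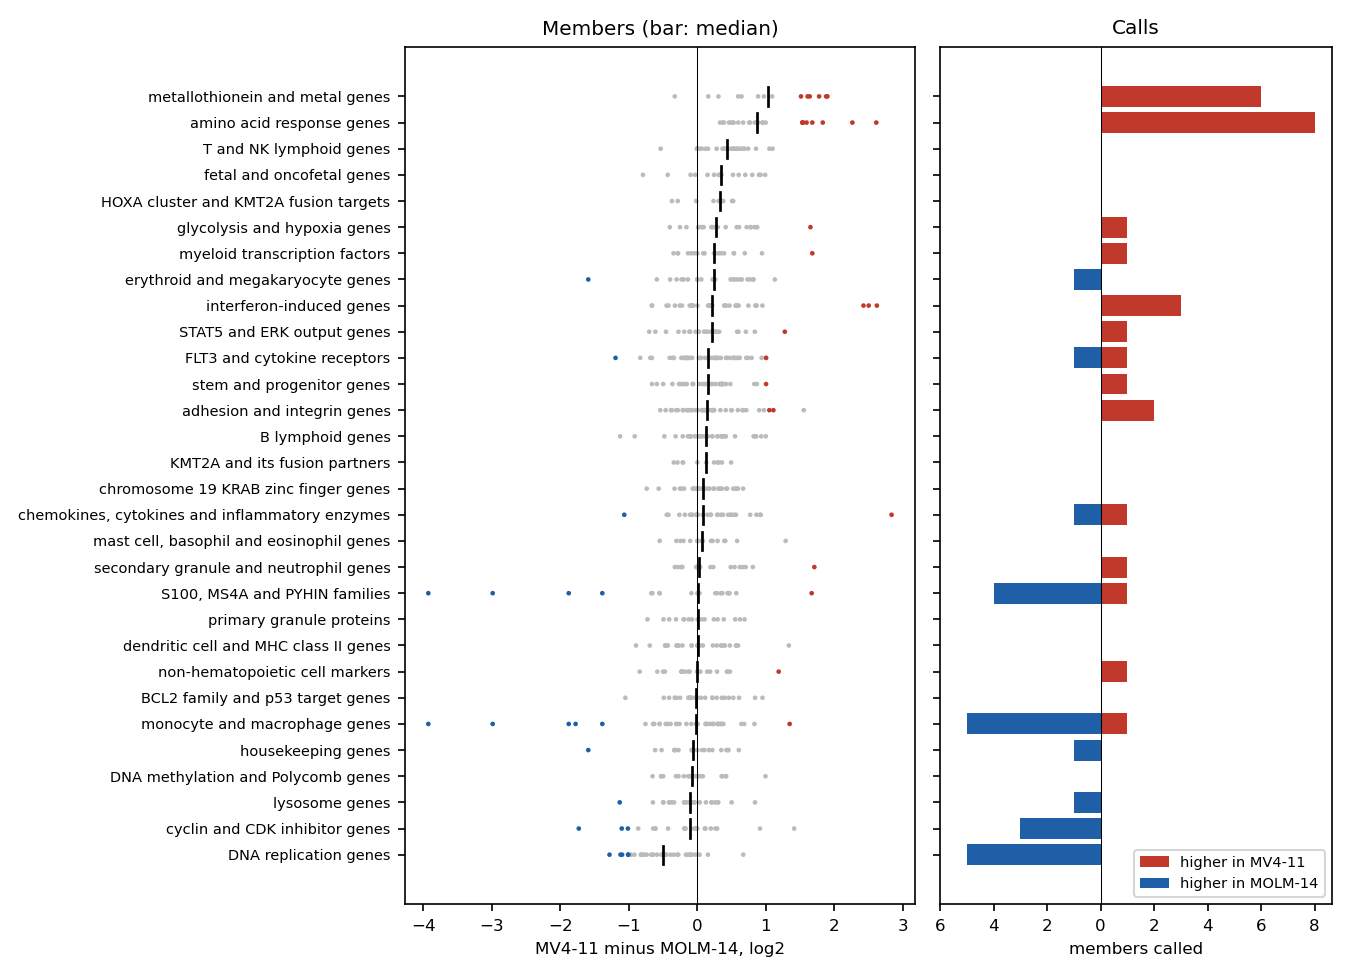
Left, log2 difference of every measured autosomal member of the 30 gene lists between MV4-11 and MOLM-14 DMSO arrays, with the median as a black bar; right, the number of members called in each direction. Metallothionein and amino acid response genes have the highest medians, DNA replication genes the lowest, and the blood lineage lists have medians between -0.01 and 0.43.

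Over the 30 lists, 28 of 737 measured genes were called higher in MV4-11 and 17 higher in MOLM-14, beside 1.2% and 0.621% of all genes. At these shares, a small list without a call says little. By chromosome, calls were described and not tested. The median difference of genes above the floor ran from -0.04 on chromosome 13 to 0.10 on chromosome 19 across the 22 autosomes, and the share of genes called higher in MV4-11 from 0.413% on chromosome 21 to 2.06% on chromosome 16. The 17 genes of chromosome 16 include the 6 called metallothioneins. The share called higher in MOLM-14 ran from 0 of 401 genes on chromosome 13 to 1.24% on chromosome 21.

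The promoters of called genes resembled those of all genes in the motifs fixed for the comparison. A C/EBP motif (TTGCNNAA) stood in 5.44% of 294 promoters of genes higher in MV4-11, in 10.3% of 146 higher in MOLM-14 and in 8.41% of all. The PU.1 type motif GAGGAAGT stood in 2.38%, 1.37% and 2.57%, and the cyclic AMP response element TGACGTCA in 2.72%, 2.05% and 2.72%. An E-box (CACGTG) stood in 7.14%, 8.9% and 8.85%, and TATAAA in 9.52%, 11% and 8.8%. The median number of CpG dinucleotides was 24, 24.5 and 23 in the 300 bases.

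The same lines were measured again in separate cultures under each drug, which the baseline comparison did not use. With ABT-869, 964 probe sets (1.77%) were called higher in MV4-11 and 73 (0.134%) higher in MOLM-14. With SAHA the shares were 1.15% and 0.244%, and with the combination 0.414% (226 probe sets) and 0.553% (302 probe sets). Of the 568 baseline calls higher in MV4-11, 73 were called the same way with ABT-869, 65 with SAHA and 16 with the combination. Of the 239 higher in MOLM-14, 16, 22 and 17 were. With the combination, 9 of the 568 and 5 of the 239 were called in the opposite direction, and with either drug alone none was. The direction was the same in 481, 486 and 339 of the 568 and in 218, 207 and 161 of the 239, in that order of treatments. Over all probe sets fitted, 60.84%, 61.81% and 55.33% were higher in MV4-11 and 35.1%, 31.37% and 39.69% higher in MOLM-14, so that with the combination the 339 lay near the share of all probe sets. The median difference of the probe sets called higher in MV4-11 at baseline was 1.304 with DMSO, 0.56 with ABT-869, 0.51 with SAHA and 0.17 with the combination. For those higher in MOLM-14 it was -1.24, -0.61, -0.41 and -0.18. A smaller value in the treated arrays is partly set by the choice of probe sets on the DMSO arrays.

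The stress genes that were higher in MV4-11 with DMSO differed less in the treated cultures, apart from CHAC1, which was called at 2.47 with ABT-869. With ABT-869, SAHA and the combination, TRIB3 differed by 0.18, -0.10 and -0.25, and DDIT3 by 0.82, 0.48 and 0.22. IFIT1 differed by 0.48, -0.76 and -1.91, and with the combination all 3 IFIT genes were called higher in MOLM-14 on the probe sets given above. The other probe sets of IFIT2 and IFIT3 had been called higher in MV4-11 with DMSO (2.38 and 1.68). With the combination they were at -0.80 and -0.57 and were not called. MT1E differed by 0.18, 0.59 and -0.84. The median of the amino acid response genes was 0.16, 0.06 and -0.22 in the 3 treatments, and 1, 0 and 0 of the 25 were called higher in MV4-11.

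On the MOLM-14 side, S100A8 was called in the same direction with ABT-869 (-1.81, adjusted p = 0.00663) and with the combination (-1.29, adjusted p = 0.0126), and stood at -0.38 with SAHA. ALDH1A3 was at -1.11, -0.37 and -1.80, and ACP3 at -0.75, -0.38 and -1.44. CCNE2 was at -0.83, 0.10 and 0.94. The median of the DNA replication genes was -0.34 with ABT-869, 0.29 with SAHA and 0.27 with the combination. MPO was called higher in MV4-11 with SAHA on both probe sets (1.59, adjusted p = 0.023, and 1.60, adjusted p = 0.0221), of which 1 had passed the adjusted p toward MOLM-14 at baseline.

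**Figure D5:**
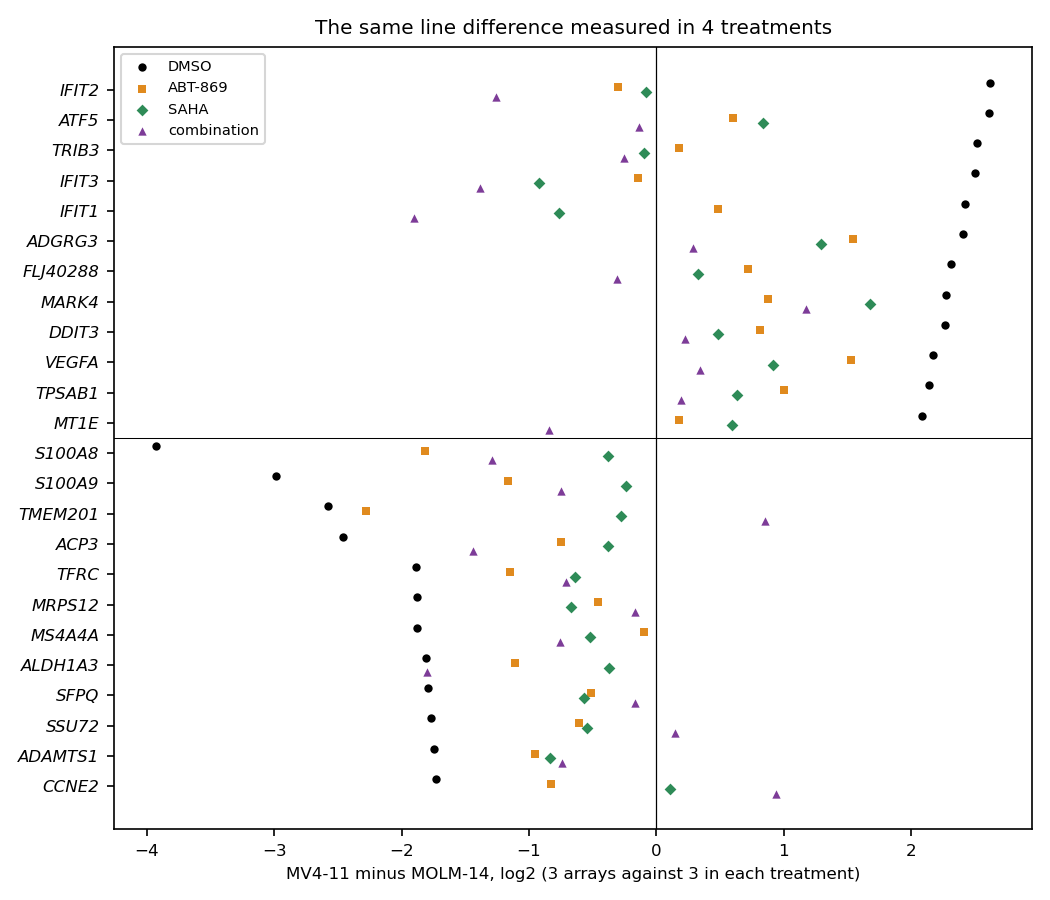
Difference between MV4-11 and MOLM-14 on the log2 scale, 3 arrays against 3 in each of 4 treatments, for the 24 genes with the largest DMSO differences. The DMSO points lie farthest from 0 in all 24 genes, which were chosen on those arrays, and IFIT2 and IFIT3 lie below 0 with every treatment and IFIT1 with SAHA and the combination.

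A few line differences recurred in every treatment. SPI1 was 0.99 higher in MV4-11 with ABT-869 (adjusted p = 0.00666), 0.94 with SAHA (adjusted p = 0.00853) and passed the adjusted p with the combination as well (0.0412), and all 12 MV4-11 arrays were above all 12 MOLM-14 arrays. The same separation held for ITGAL, at 0.96, 0.62 and 0.47. After the values were seen, 7 probe sets were found to be called in all 4 treatments, all higher in MV4-11. After quantile normalization, the DMSO calls of LENG8 (0.99), POU2F2 (0.95) and FBRS (adjusted p = 0.0594) were lost. The 7 named SETD5, a SET domain protein, HMGA1, a chromatin architectural protein, XAB2, a splicing and repair factor, POU2F2, a B cell octamer factor, and LENG8, FBRS and FAXDC2. That of HMGA1 is of a kind prone to cross-hybridization, and other probe sets of these genes are not reported here. SETD5 had signals of 1334, 744 and 1108 in MV4-11 and of 402.4, 378.2 and 242.9 in MOLM-14 with DMSO, and differed by 1.63, 2.05, 1.58 and 1.22 in the 4 treatments. XAB2 differed by 1.63, 1.07, 1.19 and 1.15, and POU2F2 by 1.05, 1.71, 1.02 and 1.35.

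On the MOLM-14 side no probe set was called in all 4 treatments. Over the 24 arrays, 248 probe sets had every MV4-11 array above every MOLM-14 array and 182 the reverse, of which 32 and 10 were baseline calls in that direction. AGGF1, an angiogenic factor, was among the 10, with 625, 562 and 617 against 1949, 1965 and 1665, and differed by -1.63, -1.11, -1.04 and -1.03 with DMSO, ABT-869, SAHA and the combination. ACP3, SEC22C, SLC10A4 and CYB5B were others of this kind, also chosen after their values were seen. Their baseline differences were -2.46, -1.30, -1.26 and -1.32.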

How the data were processed

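Affymetrix U133 Plus 2.0 arrays of 6 cultures were used, 3 of each line after 24 hours with DMSO, and 18 arrays of treated cultures for repeat comparisons. The deposited intensity values are linear signals, 1 per probe set, which the authors had summarised and, as the values show, scaled to a trimmed mean of about 500.1 per array. Their background correction and software were not given in the sources used here. Precision is limited by the number of arrays, 3 per group.

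Signals under 32 were set to 32 before the log2, and arrays were not normalized again. Control probe sets (62) were removed. Lines were compared with limma (version 3.58.1, R 4.3.3; lmFit, eBayes with an intensity trend), with Benjamini-Hochberg adjustment over 54613 probe sets. Probe sets at the floor on all arrays were kept in the adjustment as unchanged. Each treatment was fitted separately, and changes of the line difference were tested in 1 fit of 24 arrays and 8 groups. Probe sets were named by the platform annotation, 41091 with 1 gene, and genes were placed by RefSeq on GRCh38.p14.

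Named genes were, first, the 12 largest called autosomal differences in each direction. These had separate groups and a mean linear signal of at least 256 in the brighter line. The rule also took up to 3 called genes per direction of a lineage list, 2 of any other list, and a fixed set of leukemia genes. Not all of these are reported here. Each listed gene was read from its brightest probe set by mean log2 signal over all 24 arrays, with probe sets marked _x_at (prone to cross-hybridization) only where there was no other. Genes named outside this rule illustrate a list or were chosen after their values were seen. The comparison and the lists were chosen with earlier results of these data known. The fit was tested on simulated data of this comparison, where 65.7% of 67 probe sets changed by 1.5 on the log2 scale, 80.6% of 67 changed by 2 and 89.4% of 66 changed by 3 were called among 54613. Changes were placed only in probe sets averaging more than 2-fold above the floor. The simulated arrays held no shift at low signals, so these shares do not cover dimmer probe sets or such shifts. Alternatives were other floors, scalings, filters, fits and thresholds, and leaving out each array.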

Additional observations from a re-analysis of the deposited data

Results flagged for a closer look

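Covered here are only the 24 genes with the largest DMSO differences and the fixed set of leukemia genes. For 24 of these genes the difference between the lines in treated cultures was not the same as with DMSO by an interaction test in limma (adjusted p under 0.05 over all probe sets). For each gene the treatment with the lowest adjusted p is given, as the line difference with that treatment minus the line difference with DMSO, on the log2 scale. The largest DMSO differences chose 20 of these genes, so part of each change was set by that choice, and the DMSO arrays are shared by the 3 interactions. Of the 24 genes with the largest DMSO differences, 15 passed with ABT-869, 18 with SAHA and 19 with the combination, beside 727, 1667 and 5166 of all 54613 probe sets. Some genes named from the lists passed as well. Among them were CEBPB with ABT-869 (-1.55), and MT1X (-2.55), TNF (2.20) and the brightest TFRC probe set (1.43) with the combination. CD177, MN1 and SPI1 passed with no treatment.

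The combination gave the lowest adjusted p for most genes higher in MV4-11. The change was -3.88 for IFIT2, -3.89 for IFIT3 and -4.33 for IFIT1. It was -2.75 for ATF5, -2.77 for TRIB3 and -2.04 for DDIT3. For MT1E it was -2.93, for ADGRG3 -2.12 and for VEGFA -1.83.

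Among genes higher in MOLM-14, SAHA gave the lowest adjusted p for S100A8 (3.55), S100A9 (2.75), ACP3 (2.08) and ALDH1A3 (1.44), and ABT-869 for MS4A4A (1.78). The combination gave it for TMEM201 (3.43), CCNE2 (2.67), SSU72 (1.92), MRPS12 (1.72), SFPQ (1.63) and ADAMTS1 (1.01).

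In the fixed set, MPO changed by 2.32 with SAHA, and with the combination FLT3 changed by -0.49, PTP4A3 by -0.82 and MEIS1 by -0.68.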

How the results depend on the processing

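Counts of called probe sets, higher in MV4-11 and higher in MOLM-14, were 568 and 239. They were 367 and 354 after quantile normalization and 444 and 331 with array medians centred, which took the share higher in MV4-11 from 70.4% to 50.9% and 57.3%. They were 3006 and 2743 with no fold minimum and 36 and 11 at 4-fold or more. Leaving out 1 array gave 338 to 532 and 191 to 253, and the lowest MV4-11 count was that without MOLM-14 DMSO replicate 2. The cause was not tested. The replicate block gave 385 and 197. Same-numbered arrays did not deviate together (correlations 0.06, -0.06 and 0.01), so the numbers were not taken as pairs. The other counts were within 1.5 times. No named difference that was called changed its sign. Of the 24 largest, the mean of all probe sets of the gene ended the call of 6, limma without the trend that of 4 and quantile normalization that of 1. Quantile normalization moved 11 of 30 list medians by at least the spread between arrays of a line, and changed the sign of 2. Centring array medians moved 11 and changed the sign of 3. The mean of all probe sets of the gene moved 12 and changed the sign of 1. The shares of baseline calls repeated under each drug stayed within 1.5 times with a floor of 64 or quantile normalization, both added after seeing the data. Signals below 32 have no order, so absence and low expression cannot be told apart.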
